A study of Drosophila simulans with 22 samples.

Results

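Germ band retraction is the movement by which the extended trunk of the fly embryo shortens and its tail end returns to the posterior pole. It was followed here in Drosophila simulans as the comparison of 3 hourly embryo collections aged 9-10, 10-11 and 11-12 h after egg laying with 3 aged 6-7, 7-8 and 8-9 h. These are 6 of the 22 samples of a series that holds 1 sample for each hour of embryogenesis. All were whole, unsorted and untreated embryos of the reference genome strain w[501], which is named for its allele of the white eye-colour gene, pooled from population cages. Promoter activity was measured by RAMPAGE, which sequences cDNAs that reach the 5′ end of the transcript, so that each read locates the base where transcription began. Neighbouring start bases are grouped into a transcription start site cluster (TSC), taken here as 1 promoter, whose activity is given in RPM, its reads scaled to the same total in every sample. Depth was 17206157, 3556195 and 1909772 reads at 9-10, 10-11 and 11-12 h, against 8500184, 2528270 and 14760922 reads at 6-7, 7-8 and 8-9 h, so that 3 reads were worth 0.174 to 1.57 RPM. No hour was sampled more than 1 time. The 3 hours of a group therefore stood in for replicates, their spread held any trend within the group, and p-values measure only the scatter between these hours.

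A promoter can start transcription at 1 or a few neighbouring bases (a peaked promoter, which gives a narrow TSC) or over a stretch of bases (a broad promoter). In flies, peaked promoters are known from genes that are switched on in particular tissues or stages, and broad promoters from genes that most cells use. A gene can have several promoters, and promoters of neighbouring genes can lie back to back on opposite strands, where they are called divergent. Retraction falls after segmentation and before dorsal closure and cuticle formation, when muscle, nervous system, trachea and epidermis differentiate. In a whole embryo, more cells of a type and more RNA per cell cannot be told apart. RPM counts the RNA present at an hour, so new transcription and RNA kept from earlier hours cannot be told apart either. Activity below means this level. The gene numbers in the tables could not be paired with names, so promoters are given by position on the r1.4 genome, counted from 1, and no roles are assigned to them. For the same reason, the stage of the embryos could not be checked against marker genes and rests on the labelled age.

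Of 25133 distinct TSCs, 11552 averaged at least 2 RPM over the 6 hours and were tested, and 13581 were too weak. Of those tested, 9170 were assigned by the authors to a gene and 2382 to none. Between 9-12 h and 6-9 h, 722 TSCs rose, 6.25% of those tested, and 347 fell, 3.00% of those tested (limma on log2(RPM + 1), Benjamini-Hochberg adjusted p at most 0.05). The median change was 2.41 on the log2 scale for the TSCs that rose and -1.62 for those that fell, against 0.07 over all tested. Of the TSCs that rose, 531 changed by at least 2 on the log2 scale, and of those that fell, 105 did. The TSCs that rose had a median level of 26.7 RPM at 9-12 h and 3.33 RPM at 6-9 h. Those that fell had a median level of 20.5 RPM at 9-12 h and 73.2 RPM at 6-9 h. The direction of a call fixes part of this contrast, since risers are low and fallers high at 6-9 h by selection. Over the 6 hours together, the median level was 15.3 RPM for risers and 49.4 RPM for those that fell. Over all tested TSCs it was 14.7 RPM.

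**Figure D1:**
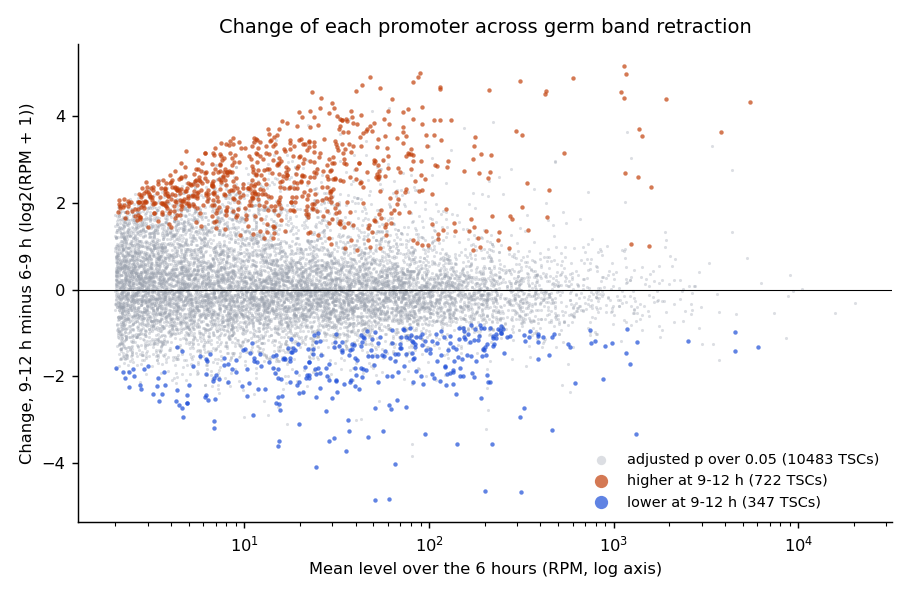
Each point is 1 of the 11552 tested TSCs. The x axis is its mean level over the 6 hours (RPM, log axis) and the y axis its change, 9-12 h minus 6-9 h, on the log2(RPM + 1) scale, with the 722 TSCs that rose in orange, the 347 that fell in blue and the others in grey. The largest rises exceed 5 on the log2 scale, and no fall reaches 5.

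The share of all reads taken by these promoters changed several fold. The 722 TSCs that rose held 5.07%, 8.84% and 12.7% of the reads at 9-10, 10-11 and 11-12 h, against 0.799%, 1.30% and 1.97% at 6-7, 7-8 and 8-9 h. The 347 that fell held 3.67%, 3.30% and 2.63% at 9-10, 10-11 and 11-12 h, against 10.2%, 8.64% and 6.59% at 6-7, 7-8 and 8-9 h. Both shares moved in every hour and not only at the border of the groups. These shares describe TSCs chosen by the same contrast. At 6-7 h, 173 of the 722 risers had no more than 3 reads and 55 had none, and at 7-8 h, 241 had no more than 3 and 79 had none, so that their activity at those hours was at the limit of what the depth can show. At 11-12 h, 59 of the 347 that fell had no more than 3 reads.

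These group calls were close to their threshold. Their adjusted p-values lay between 0.0415 and 0.0499, and no call was left without 6-7 h, without 7-8 h, without 10-11 h or without 11-12 h, whereas there were 1799 calls without 8-9 h and 1735 without 9-10 h. edgeR on the reads behind the RPM made 0 calls, with 3691 TSCs at an unadjusted p under 0.05, and DESeq2 made 2527. A straight line per hour through the 6 samples, which does not count the trend within a group as error, called 2390 TSCs as higher with time, 20.7% of those tested, and 1524 as lower, 13.2% of those tested. It held 712 of the 722 risers and 335 of the 347 that fell. Its median slope was 0.55 per hour on the log2 scale for TSCs called higher and -0.37 per hour for those called lower. With any 1 hour left out, the line still made 2609 to 3483 calls.

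The 6 hours formed a gradual series. Across the tested TSCs, Spearman's rho between neighbouring hours was 0.907 to 0.945, and its highest value, 0.945, was that of 9-10 h and 8-9 h, the pair on either side of the border. It was 0.652 between 11-12 h and 6-7 h. These values are across TSCs, which are not independent, and depend on depth, which differs between hours. Among the 6751 TSCs with a mean of at least 10 RPM, the median size of the hourly step on the log2 scale was 0.42, 0.38, 0.34, 0.31 and 0.36 along the 5 steps from 6-7 h to 11-12 h. The step across the border, 0.34, was thus no larger than those before it. Of the 722 risers, 305 were higher at each of the 5 steps, and of the 347 that fell, 115 were lower at each, whereas 9.23% of all tested TSCs moved one way at each step. Called TSCs were chosen on these same hours, so part of this excess is built in. Among called TSCs with a mean of at least 10 RPM, the median step was largest at the border. The call itself favours TSCs that change between the groups and little within them, so this is no independent result. It was 1.11 there for risers, against 0.71, 0.76, 0.77 and 0.41 at the other steps. For those that fell it was -0.83, against -0.20, -0.39, -0.43 and -0.23.

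The strongest rise was that of a promoter on 3L, whose gene also gave the fifth strongest among the gene-assigned TSCs named. This TSC, 79 bp wide (3L:9583723-9583801, minus strand), had 309, 572 and 5841 RPM at 9-10, 10-11 and 11-12 h, against 15.2, 28.1 and 46.7 RPM at 6-7, 7-8 and 8-9 h. The 2 groups did not overlap, as the rule for named TSCs required. Among all tested TSCs, 23.2% lay higher at 9-12 h without overlap. For this TSC, the last hour stood far above the hour before it, and the change was 5.16 ± 1.00 (SE, log2 scale, 3 hours each, limma adjusted p = 0.0415). A 339 bp TSC upstream of it, assigned to the same gene (3L:9584023-9584361, minus strand), had 169, 570.0 and 2797 RPM at 9-10, 10-11 and 11-12 h, against 11.1, 25.3 and 33.1 RPM at 6-7, 7-8 and 8-9 h. Its change was 4.87 ± 0.92 (SE, limma adjusted p = 0.0415), and every later hour exceeded every earlier one, again as the rule required. Both promoters were highest at 12-13 h, at 15398 and 4725 RPM, and averaged 1.91 and 8.39 RPM by 19-22 h, so that this activity was a pulse of a few hours.

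A 151 bp TSC also on 3L (3L:3050523-3050673, minus strand) had 584, 1743 and 4486 RPM at 9-10, 10-11 and 11-12 h, against 45.9, 44.3 and 68.6 RPM at 6-7, 7-8 and 8-9 h. It changed by 4.97 ± 0.65 (SE, limma adjusted p = 0.0415) and its 3 earlier values were close to each other. It was highest at 12-13 h, with 5177 RPM, and had no read at 19-22 h. It had also averaged 115 RPM at 3-6 h, against 52.9 RPM at 6-9 h, so this pulse was not its first activity. On X, a 267 bp TSC (X:2783885-2784151, plus strand) had 33.6, 99.0 and 381 RPM at 9-10, 10-11 and 11-12 h, against 1.29, 1.98 and 6.37 RPM at 6-7, 7-8 and 8-9 h. All 3 earlier values were under 7 RPM and rested on 11, 5 and 94 reads. The remaining gene-assigned promoter named, 43 bp wide (3L:2815751-2815793, plus strand), belonged to a row of rising genes described with its neighbours.

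The 3 unassigned TSCs with the largest rises were all on 3R and on the plus strand. One of only 13 bp (3R:2090958-2090970) had 23.4, 89.1 and 417 RPM at 9-10, 10-11 and 11-12 h, against 1.65, 1.58 and 3.05 RPM at 6-7, 7-8 and 8-9 h. A 120 bp TSC (3R:16530213-16530332) had 30.5, 169 and 115 RPM at 9-10, 10-11 and 11-12 h, against 0.588, 1.98 and 7.18 RPM at 6-7, 7-8 and 8-9 h. Its highest hour of all 22 was 10-11 h and it averaged 5.94 RPM at 13-16 h, but it had also had 44.6 RPM at 3-4 h, so its rise was a second pulse. The narrower of the others, 41 bp wide (3R:22700315-22700355), had 10.1, 20.8 and 138 RPM at 9-10, 10-11 and 11-12 h, against 0.353, 1.58 and 1.02 RPM at 6-7, 7-8 and 8-9 h. Their changes were 5.01 ± 0.90, 4.66 ± 0.76 and 4.07 ± 0.85 (SE, limma adjusted p = 0.0415 for each). That last promoter was just beginning to rise, since it reached 1048 RPM at 13-14 h.

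The largest falls were in promoters whose RNA level was already declining between 6 and 9 h. The strongest among the gene-assigned ones, a 225 bp TSC on 3L (3L:14282267-14282491, plus strand), had 40.7, 17.4 and 5.24 RPM at 9-10, 10-11 and 11-12 h, against 1116, 603 and 113 RPM at 6-7, 7-8 and 8-9 h. It changed by -4.66 ± 0.93 (SE, limma adjusted p = 0.0415). A 21 bp TSC in the same neighbourhood (3L:14257524-14257544, minus strand) had 27.2, 9.28 and 3.14 RPM at 9-10, 10-11 and 11-12 h, against 813, 264 and 84.3 RPM at 6-7, 7-8 and 8-9 h. Both were lower at each of the 5 steps, with slopes of -1.54 ± 0.08 and -1.54 ± 0.06 per hour on the log2 scale (SE, limma adjusted p = 0.00012 and 3.4e-05). A 23 bp TSC on X (X:215905-215927, plus strand) fell in the same manner, to 8.14, 6.19 and 1.05 RPM at 9-10, 10-11 and 11-12 h, against 279.6, 67.6 and 28.5 RPM at 6-7, 7-8 and 8-9 h.

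On 2L, a 131 bp TSC (2L:1492993-1493123, minus strand) had 3.43, 1.41 and 1.57 RPM at 9-10, 10-11 and 11-12 h, against 158, 39.6 and 8.60 RPM at 6-7, 7-8 and 8-9 h. The 6 hours caught only the tail of its RNA level, for it had 7408 RPM at 2-3 h. A 33 bp TSC on the same arm (2L:8726634-8726666, minus strand) had 4.01, 1.12 and 0 RPM at 9-10, 10-11 and 11-12 h, against 45.4, 27.3 and 14.0 RPM at 6-7, 7-8 and 8-9 h. The last value means no read in 1909772, for which the upper 95% Wilson limit is 2.01 RPM.

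Of the unassigned TSCs, a 69 bp one on 2R (2R:16714437-16714505, minus strand) had 11.5, 1.97 and 0 RPM at 9-10, 10-11 and 11-12 h, against 201, 114 and 35.7 RPM at 6-7, 7-8 and 8-9 h, a change of -4.83 ± 0.95 (SE, limma adjusted p = 0.0415). One of 145 bp on 2L (2L:20580382-20580526, minus strand) had 2.21, 1.69 and 0 RPM at 9-10, 10-11 and 11-12 h, against 53.3, 28.9 and 6.64 RPM at 6-7, 7-8 and 8-9 h. The mildest of the named falls was on the small chromosome 4 (4:172801-172959, minus strand), with 2.50, 1.69 and 2.62 RPM at 9-10, 10-11 and 11-12 h, against 30.1, 13.1 and 11.7 RPM at 6-7, 7-8 and 8-9 h. Its last 2 values rested on 6 and 5 reads. Every one of the 16 TSCs named kept its direction under all the alternatives tried, and each was also called by the line per hour, with adjusted p-values between 3.4e-05 and 0.004. They were chosen for large changes in these same hours, so neither is independent support. All 16 missed the threshold of the group test with edgeR, above a mean of 10 RPM, and without 6-7, 7-8, 10-11 or 11-12 h.

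**Figure D2:**
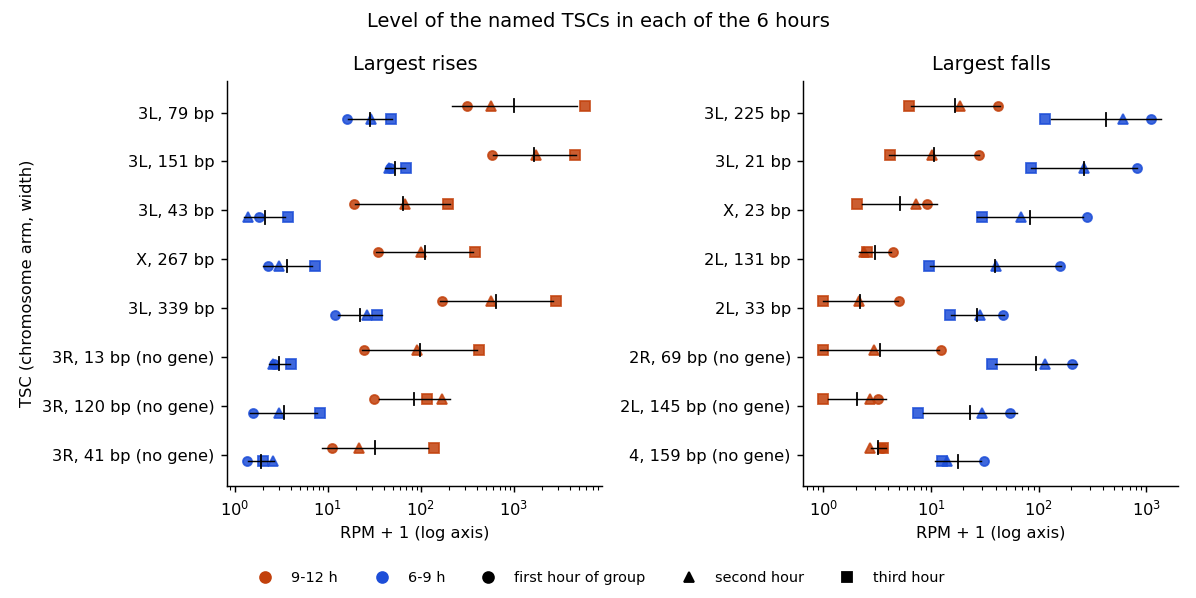
The 8 largest rises (left) and the 8 largest falls (right) by the rule for named TSCs, each labelled by chromosome arm and width. The x axis is RPM + 1 on a log axis, with 9-12 h in orange and 6-9 h in blue, 1 marker per hour, the vertical tick at the mean of the log values and the horizontal bar at 1 SD of them (n = 3 hours). In no row do the hours of the groups overlap, as the rule required, and within most groups the hours run in one direction.

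Rising promoters were narrower than the others, except among the strongest. Their median width was 61 bp, against 97 bp over all tested TSCs, whereas those that fell had a median of 115 bp. The tested TSCs were split by width into 4 classes of about equal size. In the narrowest class, of up to 58 bp, 345 of 2894 rose, or 11.9%, against 4.70%, 3.85% and 4.50% in the classes above it and 6.25% over all. In that class 1.94% fell, against 2.35%, 4.02% and 3.73% in the classes above it and 3.00% over all. The median change was 0.50 on the log2 scale in the narrowest class, and -0.02, -0.04 and -0.02 in the wider ones. Calls of the line per hour showed the same order, with 34.6% of the narrowest class higher with time, against 16.4%, 15.8% and 16.0% in the others and 20.7% over all.

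Narrow TSCs were also weaker, with a median of 5.56 RPM in the narrowest class and 27.3 RPM in the widest, so the shares were taken within levels. Among TSCs of 2 to 10 RPM, 8.90% of the narrowest class rose and 2.31% of the widest. Among those of 10 to 100 RPM the shares were 18.5% and 6.83%, and among those of at least 100 RPM they were 14.9%, or 11 of 74, and 3.93%. The share that rose was therefore higher in the narrowest class at every level. The median width of risers was 38, 73 and 135.5 bp at these levels, against 73, 100 and 137 bp of all tested TSCs. Strong risers were thus about as wide as other strong TSCs. For those that fell the medians were 87.5, 109 and 134.5 bp. Among the strong TSCs, 13.5% of the narrowest class fell too, or 10 of 74, against 6.76% of the widest. Widths come from peaks called on the reads of the whole series and depend on depth, and the part of this in the result was not tested.

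Rising promoters also rarely had a divergent partner, meaning a tested TSC on the other strand that starts within 500 bp upstream. Only 35 of the 722 risers had one, or 4.85%, against 21.5% of all tested TSCs, or 2480 of 11552. Of the 347 that fell, 92 had one, or 26.5%. Within levels the risers' share was 3.35%, 5.45% and 7.35% at 2 to 10, 10 to 100 and at least 100 RPM, against 13.0%, 27.0% and 29.0% of all tested TSCs at those levels. For the TSCs that fell it was 13.0%, 28.2% and 30.2%, close to all tested TSCs at each level. Among TSCs called by the line per hour, 8.54% of those higher with time and 28.7% of those lower with time had a partner. At 2 to 10 RPM, 22.1% of those lower with time by the line had one, above the 13.0% of all tested TSCs at that level. The 1240 pairs lay a median of 230 bp apart. In 2 pairs both rose, in 31 only 1 rose, in 2 both fell, in 88 only 1 fell, and in 0 pairs did 1 rise and the other fall. The partner of a riser thus rose in 11.4% of cases, which rests on 2 pairs, where 35 of all 2480 partnered TSCs rose. The partner of a TSC that fell also fell in 4.35% of cases, where 92 of the 2480 fell.

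**Figure D3:**
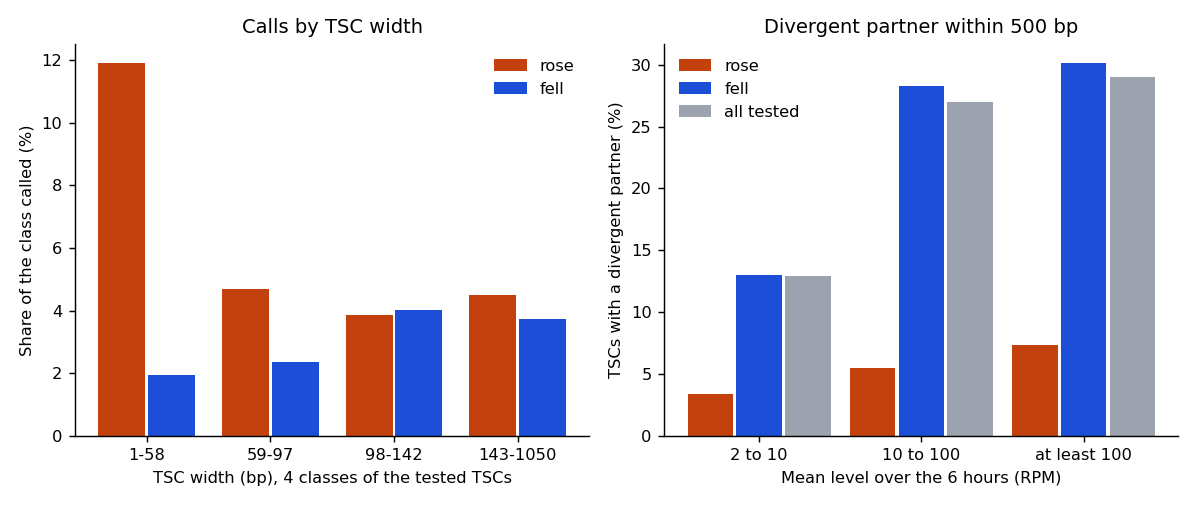
Left, the share of tested TSCs in each class of width that rose (orange) or fell (blue), in percent, from the narrowest class (1-58 bp) to the widest (143-1050 bp), where 11.9% of the narrowest rose and 4.50% of the widest. Right, the share of TSCs with a divergent partner, in percent, among TSCs that rose, that fell and all tested, at 3 levels of mean RPM, where the risers are lowest at each level (3.35%, 5.45% and 7.35%).

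Risers and fallers were found on each of the 6 chromosome arms. The share that rose was 6.38% on 2L, 6.26% on 2R, 7.13% on 3L, 7.01% on 3R, 5.27% on X and 8 of 91 TSCs on chromosome 4, near the 6.25% over all. The share that fell was 3.16%, 3.39%, 3.04% and 2.65% on 2L, 2R, 3L and 3R, 2.10% on X and 1 of 91 on chromosome 4. Unassigned TSCs on these chromosomes rose in 94 of 1228 cases, or 7.65%, and fell in 33, against 6.40% and 2.92% of the gene-assigned TSCs. Of the other 1154 unassigned TSCs, on unplaced sequence, 3.55% rose and 3.99% fell.

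Called genes lay next to each other in a few rows. With each gene on the chromosomes represented by its strongest TSC, 461 of 6971 genes rose, or 6.61%, and 231 fell, or 3.31%. The next gene along the chromosome also rose for 9.98% of the rising genes, or 46, and also fell for 4.76% of the falling ones, or 11. It had the opposite call for 13 of the rising genes and 16 of the falling ones. Falling genes thus had a rising next gene more often than a falling one. Most shared neighbours were pairs, and 4 rows held 3 genes or more. These rows were found in the values themselves and carry no test.

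The longest row of rising genes held 4 genes within 38.7 kb of 3L (3L:2791525-2830264), all read from the plus strand by TSCs of 15 to 43 bp. Its members were almost silent before 9 h. One of them, a named TSC (3L:2815751-2815793), had 18.2, 66.6 and 197 RPM at 9-10, 10-11 and 11-12 h, against 0.824, 0.396 and 2.71 RPM at 6-7, 7-8 and 8-9 h. The last one, 28 bp wide (3L:2830237-2830264), had 15.1, 52.6 and 169 RPM at 9-10, 10-11 and 11-12 h, against 0.118, 1.19 and 3.39 RPM at 6-7, 7-8 and 8-9 h. The second gene (3L:2806603-2806617) had 14.0, 36.6 and 15.2 RPM at 9-10, 10-11 and 11-12 h, against 0.118, 0.396 and 3.32 RPM at 6-7, 7-8 and 8-9 h, and the first (3L:2791525-2791546) had 4.59, 8.15 and 17.3 RPM, against 0.118, 0.791 and 1.56 RPM. The members did not share a course: the first was highest at 14-15 h, the next 2 at 13-14 h and the last at 12-13 h. For the second gene, its 37.2 RPM at 13-14 h cannot be told from its 36.6 RPM at 10-11 h. The 12-13 h sample is the shallowest of the series. At 19-22 h the first still had 26.8 RPM, whereas the next 2 had no read.

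The longest row of falling genes held 5 genes within 27.7 kb, also on 3L (3L:14257524-14285229), and every TSC tested in that stretch fell. It held the 2 gene-assigned TSCs with the largest falls among those named. The gene at its far end, read from a 20 bp TSC (3L:14285210-14285229, plus strand), had 156, 79.6 and 20.4 RPM at 9-10, 10-11 and 11-12 h, against 599, 731 and 281 RPM at 6-7, 7-8 and 8-9 h. A 36 bp TSC between them (3L:14279084-14279119, plus strand) had 49.1, 32.3 and 13.1 RPM at 9-10, 10-11 and 11-12 h, against 180.0, 131 and 84.0 RPM at 6-7, 7-8 and 8-9 h. The weakest member (3L:14283238-14283484, plus strand) had 0.872, 0.844 and 0 RPM, against 5.53, 4.75 and 3.05 RPM. The 5 changes ranged between -4.66 and -1.82 on the log2 scale, and all 5 promoters were highest between 4 and 8 h.

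Rows of 3 rising genes lay on 2R (2R:18625620-18669208) and on 3R (3R:15340688-15359431). In the row on 2R the genes differed in their later course. The middle one (2R:18654828-18654933, plus strand) had 294, 427 and 332 RPM at 9-10, 10-11 and 11-12 h, against 32.8, 47.1 and 120.0 RPM at 6-7, 7-8 and 8-9 h, with its highest hour at 10-11 h. The last one (2R:18669120-18669208, minus strand) had 37.0, 75.1 and 414 RPM, against 4.12, 8.70 and 7.72 RPM, and reached 1285 RPM at 13-14 h. The first (2R:18625620-18625673, plus strand) averaged 80.5 RPM already at 0-3 h and 13.2 RPM at 3-6 h, so its level had fallen before it rose. RNA at 0-3 h can include RNA deposited by the mother. In the row on 3R the largest of the 3 changes was 2.78 ± 0.40 and the smallest 2.21 ± 0.44 (SE, log2 scale).

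The hours outside the comparison placed these changes in the whole of embryogenesis. Of the 722 risers, 173 or 24.0% had their highest hour of all 22 within 9-12 h, against 12.5% of the TSCs with no call. In the 3 hours that followed, 395 or 54.7% had it, against 16.4%. Another 43, or 5.96%, had it before 6 h, against 46.1%. A riser could not have it at 6-9 h by selection. The median level of the risers stayed between 0.629 and 1.41 RPM in all hours up to 6-7 h, was 14.3 RPM at 9-10 h and 35.6 RPM at 11-12 h, was highest at 13-14 h with 41.9 RPM, and was back at 11.2 RPM in the last hour. In hours that took no part in the comparison, the mean of 13-16 h was above that of 3-6 h for 709 of the 722 risers, or 98.2%, against 42.3% of the TSCs with no call. For 378 risers, or 52.4%, the 19-22 h mean was under 0.5 times the 9-12 h mean, against 59.1% of the TSCs with no call. For 204 risers, or 28.3%, it was at or above the 9-12 h mean, against 18.2% of the TSCs with no call. The 9-12 h mean of a riser is itself high by selection.

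Most TSCs that fell had their highest hour before 6 h. These were 257 of the 347, or 74.1%, against 46.1% of the TSCs with no call. At 3-6 h the shares were 46.4%, or 161 TSCs, and 16.0%, whereas at 0-3 h they were 27.7% and 30.1%. Another 89, or 25.6%, had it at 6-9 h, against 13.7%. A faller could not have it at 9-12 h by selection, which raises its shares elsewhere. Their median level was 63.3 RPM in the first hour and highest at 4-5 h, with 104 RPM. It was still 89.8 RPM at 6-7 h, was 29.1 RPM at 9-10 h and 16.2 RPM at 11-12 h, and ended at 6.32 RPM. For 344 of them, or 99.1%, the 13-16 h mean lay below that of 3-6 h, against 57.5% of the TSCs with no call. At 19-22 h only 2 of the 347 were at or above their 6-9 h mean, whereas 23.6% of the TSCs with no call were. The 6-9 h mean of a faller is high by selection, so part of this contrast is built in. The 12-13 h sample, the shallowest of the series at 322564 reads, can resolve only levels above about 9.30 RPM.

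**Figure D4:**
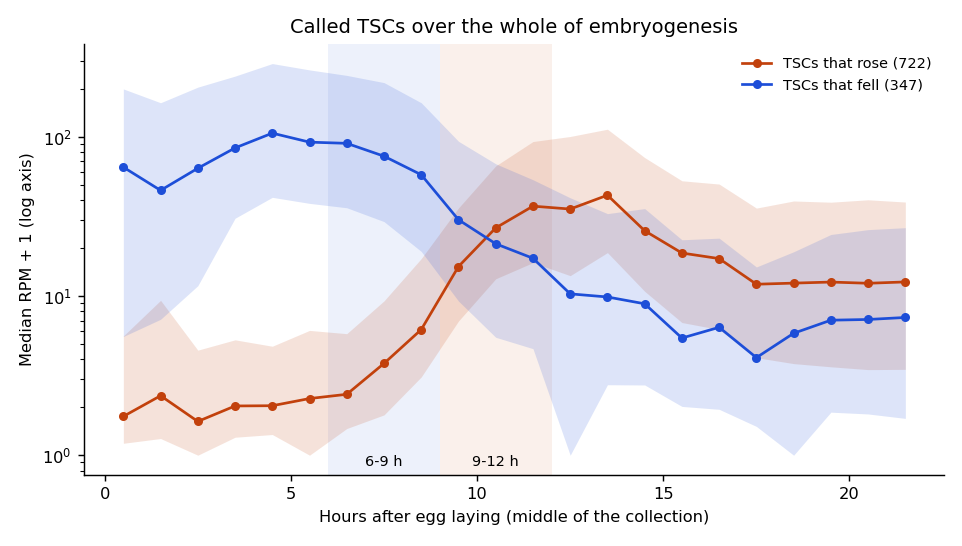
Median level (RPM + 1, log axis) of the 722 TSCs that rose and the 347 that fell, over all 22 hours after egg laying, with the range between the lower and upper quartile shaded and the 6-9 h and 9-12 h windows marked. The rising TSCs have their highest median, 41.9 RPM, at 13-14 h and the falling ones theirs, 104 RPM, at 4-5 h, and the curves cross between 9 and 11 h.

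Promoters of 1 gene did not always change alike. Of 1454 genes with at least 2 tested TSCs, 102 or 7.02% had TSCs whose changes differed (limma diffSplice, Simes p, Benjamini-Hochberg adjusted p at most 0.05). In 90 of these 102 genes, the changes of the TSCs had both signs. In 49, at least 1 TSC rose by its own test and none fell, in 16 at least 1 fell and none rose, in 3 TSCs were called in both directions, and in 34 no TSC was called by itself. Among the 47 called genes with exactly 2 TSCs, the upstream promoter gained on the other in 24 and the downstream one in 23, and the gaining promoter was the narrower in 25 of 47. Over all 981 tested genes with 2 TSCs on the same strand, the upstream one gained in 42.5% and the gaining one was narrower in 54.6%. The count rested on single hours: it was 0 without 7-8 h, 4 without 10-11 h, 8 without 6-7 h, 21 without 11-12 h and 181 without 8-9 h. edgeR's test on reads called 16 genes.

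In each of the 6 genes named by the rule, the strongest promoter at 11-12 h was another than the strongest at 6-7 h. The rule chose genes for unequal change in these same hours, which favours such a switch. How often it occurs among the other tested genes was not counted. In a gene on 2L, a 97 bp TSC (2L:7191977-7192073, plus strand) had 251, 271 and 449 RPM at 9-10, 10-11 and 11-12 h, against 34.5, 43.5 and 71.5 RPM at 6-7, 7-8 and 8-9 h. The 20 bp TSC just downstream of it (2L:7192270-7192289, plus strand) had 205, 61.3 and 109 RPM, against 237, 267 and 170.4 RPM at those hours. Within these 6 hours the upstream promoter was thus the weaker in every hour before 9 h and the stronger in every hour after it, and the 2 changes differed by 3.68 on the log2 scale (adjusted p = 0.00741, limma diffSplice). By 19-22 h the order was turned again, with means of 0.253 RPM for the upstream and 30.7 RPM for the downstream promoter.

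In a gene on 3L, the upstream TSC (3L:2318403-2318471, minus strand) stayed between 16.8 and 29.7 RPM throughout. The downstream one (3L:2314012-2314191, minus strand) had 13.1, 30.4 and 38.7 RPM at 9-10, 10-11 and 11-12 h, against 0.235, 1.58 and 2.71 RPM at 6-7, 7-8 and 8-9 h, and so joined and then passed it. In a gene on 2R, the upstream TSC (2R:13957341-13957430, plus strand) had 18.2, 14.6 and 8.90 RPM at 9-10, 10-11 and 11-12 h, against 38.1, 21.0 and 24.5 RPM at 6-7, 7-8 and 8-9 h. Its downstream TSC (2R:13958088-13958160, plus strand) had 18.5, 25.0 and 25.1 RPM, against 3.65, 5.54 and 8.67 RPM, and later reached 193 RPM at 15-16 h.

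A second gene on 2L had 3 promoters that moved apart. Its upstream TSC (2L:7941836-7941935, minus strand) had 162, 173 and 163 RPM at 9-10, 10-11 and 11-12 h, against 38.6, 49.8 and 115 RPM at 6-7, 7-8 and 8-9 h. Its downstream TSC (2L:7925041-7925142, minus strand) had 22.3, 2.53 and 2.62 RPM, against 82.9, 66.1 and 44.8 RPM, and had led at 6-7 and 7-8 h. The middle one (2L:7938860-7939091, minus strand) had 9.82, 11.0 and 4.19 RPM, against 28.8, 20.6 and 18.5 RPM. By their own tests only the downstream promoter changed, with adjusted p-values of 0.0541 and 0.0581 for the upstream and the middle one.

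In the last 2 genes a promoter that had been the weaker took over. On 3R, the downstream TSC (3R:7999159-7999184, minus strand) had 17.1, 18.8 and 40.3 RPM at 9-10, 10-11 and 11-12 h, against 5.88, 3.96 and 6.23 RPM at 6-7, 7-8 and 8-9 h, while the upstream one (3R:8005478-8005558, minus strand) had 20.2, 19.7 and 11.0 RPM, against 35.3, 25.7 and 24.3 RPM. On 2L, the upstream TSC (2L:21148345-21148441, minus strand) had 12.6, 23.1 and 42.9 RPM, against 1.06, 1.58 and 4.34 RPM, while the downstream one (2L:21144151-21144183, minus strand) had 8.72, 10.7 and 13.6 RPM, against 42.6, 32.4 and 9.35 RPM. That upstream promoter had averaged 194 RPM at 0-3 h and 5.85 RPM at 3-6 h, so its level had fallen before it rose. RNA at 0-3 h can include RNA deposited by the mother, so early use of this promoter by the embryo is not shown.

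**Figure D5:**
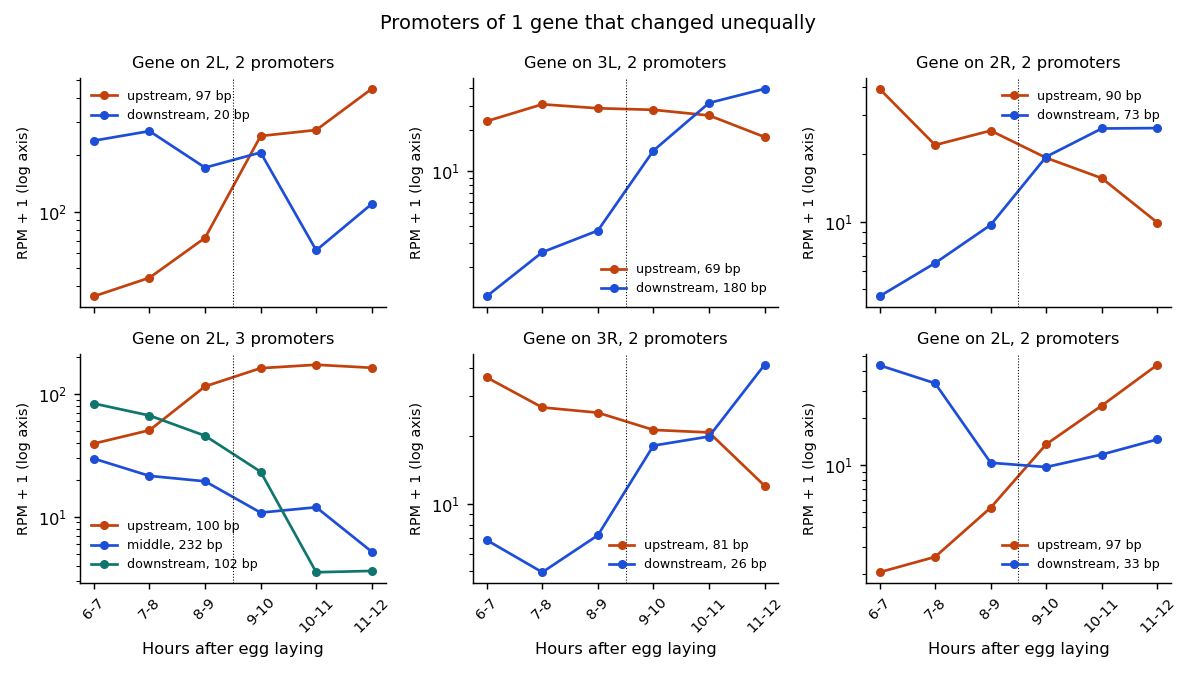
RPM + 1 (log axis) of the promoters of the 6 named genes at each of the 6 hours, in time order, with the border between 6-9 h and 9-12 h dotted and each promoter labelled by its place along the gene and its width in bp. In each of the 6 panels the highest line at 11-12 h is another than the highest at 6-7 h, and in the gene with 3 promoters the upstream one leads from 8-9 h on. The genes were chosen for unequal change in these hours.

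The gene table, in which the promoters of a gene are added up, gave similar shares. Of 8460 genes, 6763 were tested, 502 rose, 7.42% of those tested, and 267 fell, 3.95% of those tested (limma, adjusted p at most 0.05). The line per hour called 1484 genes as higher with time, 21.9% of those tested, and 970 as lower, 14.3% of those tested. The median change was 2.37 on the log2 scale for the genes that rose and -1.35 for those that fell. As for TSCs, no gene was called without 6-7, 7-8, 10-11 or 11-12 h, edgeR called 0 with 2312 at an unadjusted p under 0.05, and DESeq2 called 1674. Only 1 of the 8460 gene numbers of this table is also in the TSC list, so the tables number genes differently, and whether the numbers of this table are those of D. simulans genes or of their counterparts in another fly species is not given in the sources used here.

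The 12 genes with the largest rises reached 48.4 to 3413 RPM on average at 9-12 h, against 0.213 to 130.1 RPM at 6-9 h. The gene numbered FBgn0000451 had 479, 1148 and 8613 RPM at 9-10, 10-11 and 11-12 h, against 26.3, 53.5 and 80.0 RPM at 6-7, 7-8 and 8-9 h, a change of 5.09 ± 0.97 (SE, limma adjusted p = 0.0426). FBgn0001254 had 585, 1763 and 4507 RPM, against 45.8, 45.2 and 69.2 RPM. Its reads in all 22 samples equal the sum over the 4 TSCs of the gene on 3L that holds the 151 bp TSC described above, so that it is the same gene.

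The 12 genes with the largest falls averaged 1.93 to 96.2 RPM at 9-12 h, against 20.2 to 823 RPM at 6-9 h. FBgn0003411 had 13.6, 1.11 and 0 RPM at 9-10, 10-11 and 11-12 h, against 135, 104 and 51.3 RPM at 6-7, 7-8 and 8-9 h, a change of -4.86 ± 0.92 (SE, limma adjusted p = 0.0426). FBgn0000216 had 40.4, 17.3 and 5.19 RPM, against 1109.7, 599 and 113 RPM, and its reads equal those of the 225 bp TSC on 3L that had the largest fall among the named gene-assigned TSCs. Of the 769 called genes, 538 could be tied in this way to 1 gene of the TSC list. Among these, 300 of the 337 that rose and 157 of the 201 that fell had at least 1 TSC called in the same direction, and 0 had a TSC called in the other. Of the 58 rising genes with several tested TSCs, all TSCs rose in 15, and of the 33 falling ones, all fell in 0.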

How the data were processed

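Whole embryos were collected over 1 h and aged. Per the study's methods, every sample was barcoded at reverse transcription and all were sequenced as 1 pool. The authors mapped reads with STAR to FlyBase r1.4, called TSCs on the pooled reads of all 22 samples with their own caller, and removed rDNA peaks. The deposited values are RPM per TSC and per gene, scaled by the authors to total reads. All values were whole multiples of 1 read (100% within 0.1), which gave reads and depth. Another deposited table, of smoothed scores aligned between species, was not used.

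The list has 25410 lines. 269 positions stood under several genes with identical values and were taken once, which removed 277 lines. The limma (3.58.1) trend fit on log2(RPM + 1) compared 3 hours with 3, for TSCs and genes with a mean of at least 2 RPM. A fold change on this scale understates the change of weak promoters. Promoter usage was tested with limma diffSplice, counting genes with the same TSCs once. Alternatives used other pseudocounts, filters and scalings, edgeR (4.0.16) and DESeq2 (1.42.0) on the recovered reads, reads thinned to the shallowest hour, a slope per hour, and each hour left out. The limma tests of group difference, slope per hour and promoter usage were run on simulated reads first. The simulated group differences held no trend within a group, unlike these data. Fits with edgeR, with DESeq2 or with an hour left out were not simulated. Named TSCs are the 5 gene-assigned and 3 unassigned ones with the largest rise and as many with the largest fall, among those called, with a mean of at least 10 RPM and no overlap between groups. For genes, 2 numbers each way are printed. The 6 genes of the usage test have the smallest adjusted p among those whose TSCs all average at least 10 RPM. Divergent partners start within 500 bp. Duplicate reads are not marked, so floors of 3 reads cover counting error only.

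The comparison, rules and lists were chosen with earlier results of these data known. Gene lists planned by symbol, tissue markers included, could not be applied, since 0 of 8460 gene numbers and 0 of 9322 in the TSC list matched the RefSeq table (Prin_Dsim_3.1). No sequence was used here.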

Additional observations from a re-analysis of the deposited data

How the results depend on the processing

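The hours are single samples, and the group calls lie just under their threshold. TSC calls (1069) came to 0 above a mean of 10 RPM (lowest adjusted p 0.0505, 2313 TSCs at an unadjusted p under 0.05), 0 with edgeR, 2527 with DESeq2, 3914 with the slope per hour and 2083 without 8-9 h and 9-10 h. With 1 hour left out they ranged between 0 and 1799. The slope, refitted after seeing the data without 9-10, 10-11, 11-12, 6-7, 7-8 or 8-9 h, gave 3428, 3094, 3160, 2609, 3391 and 3483 calls. Gene calls (769) came to 480 above a mean of 10 RPM, 0 with no filter (lowest adjusted p 0.05002, 2706 genes at an unadjusted p under 0.05), 0 with edgeR, 1674 with DESeq2, 2454 with the slope and 1307 without 8-9 h and 9-10 h. With 1 hour left out they ranged between 0 and 1154, and the slope without those hours gave 2161, 1925, 1945, 1685, 2162 and 2183. Genes with unequal promoters (102) came to 51 above a mean of 10 RPM, 16 with edgeR, 165 with a pseudocount of 5 RPM, and between 0 and 181 with 1 hour left out. Other pseudocounts, filters, scalings and thinning gave 753 to 1250 TSC calls and 700 to 852 gene calls, and keeping the lines listed more than 1 time gave 1094 TSC calls. TMM factors moved the median change of all TSCs to -0.08, from 0.07 as deposited, and gave 691 higher and 504 lower. The 16 TSCs and 4 genes named kept their sign in every alternative. All 20 missed the threshold with edgeR and without 6-7, 7-8, 10-11 or 11-12 h, as the counts did, and the 16 TSCs also missed it above a mean of 10 RPM, the 4 genes with no filter and 2 of the 20 with a pseudocount of 5 RPM. No paired analysis was possible because each hour has 1 sample and its number is a place in time. Depth limits levels under 0.174 to 1.57 RPM.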
